A study of Mus musculus with 6 samples.

Results

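Ubiquitin-specific proteases are the largest family of enzymes that remove ubiquitin from proteins, and their genes carry the symbol Usp followed by a number. All genes with such a symbol in the probe annotation of the array were taken, which gave 47 genes with 74 probes, among 16593 annotated genes and 25697 probes in all. Their mRNA levels were compared in gastrocnemius muscle after the loss of its nerve. The muscles came from adult male mice that were 12 weeks old at the operation. The 3 denervated samples were left gastrocnemius muscles taken 14 days after a 2 mm piece of the sciatic nerve had been cut out, and the 3 control samples were right gastrocnemius muscles with the nerve intact. The mice carried no allele or agent named in the labels, and their strain and number are not given in the sources used here. The control muscle was that of the opposite leg of operated animals, so that both groups share the isoflurane anesthesia and the surgery on the left leg. No muscle of an unoperated mouse was analysed here. Each sample was hybridized to 1 Illumina bead array.

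Ubiquitin is attached to proteins by a chain of E1, E2 and E3 enzymes and marks many of them for breakdown by the proteasome, the machine that degrades much of the protein lost from a wasting muscle. Ubiquitin-specific proteases use a catalytic cysteine to cut ubiquitin off again. Some rescue a protein from breakdown, some recycle ubiquitin at the proteasome, and others edit ubiquitin marks on histones, receptors or mitochondria. Usp6nl carries the symbol but is a GTPase-activating protein for Rab proteins and not a protease.

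Of the 47 genes, 32 had a probe above background on at least 3 of the 6 arrays and 15 had none. The 15 genes without one were above background on 0 arrays: Usp24, Usp25, Usp26, Usp27x, Usp29, Usp43, Usp44, Usp48, Usp49, Usp50, Usp9y and the Usp17-like genes Usp17la, Usp17lb, Usp17lc and Usp17ld. Usp25, which has a muscle isoform in humans, therefore gave no value in either group, and the same held for Usp26 and Usp29, which are known from the testis. A probe that stays at background shows only that this probe found no signal, not that the gene is silent. The 32 measured genes had 47 probes above background, and the other 27 probes, 17 of them in the 15 dim genes, were left out of the test. The denervated arrays detected 46 or 47 of the 74 probes and the control arrays 41 to 46.

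Values are normalized log2 intensities, on which 1 unit is a 2-fold difference, and a fold change is denervated minus control. A gene is represented by its brightest detected probe and was called changed at an adjusted p under 0.05 (limma, Benjamini-Hochberg over all 12546 detected probes). Of the 32 genes 10 rose and 3 fell, and 19 did not pass the threshold. Among all 8740 genes tested, 43.8% were called, 22.2% as higher and 21.6% as lower. The 13 members called are 40.6% of the measured ones, so that the family as a whole was called about as often as the other genes. The median log2 fold change was 0.17 over the 32 members, against 0.00 over all genes (-0.00325), and was 0.07 without control replicate 1 and 0.29 without control replicate 3. The split of the calls moved with the scaling of the arrays and with the filter on dim probes, and 2 of the 10 rises, Usp37 and Usp11, passed that filter only through the denervated arrays. With the arrays shifted to 1 median, which moved the median of all genes to 0.20 and made 73.2% of all calls rises, against 50.6%, there were 16 rises and 2 falls. When only probes detected on all arrays set that median there were 9 rises and 5 falls, at 43.9% rises in all. With detection required on all 6 arrays, 26 members were left, of which 8 rose and 5 fell. Of the 7483 genes left in all, 47.6% were called, at 48.7% rises. The sign of each of the 13 called members held under every scaling, filter and left-out array tried. In 16 of the 32 genes (50%) the groups did not overlap, as was the case for 55% of all genes.

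**Figure D1:**
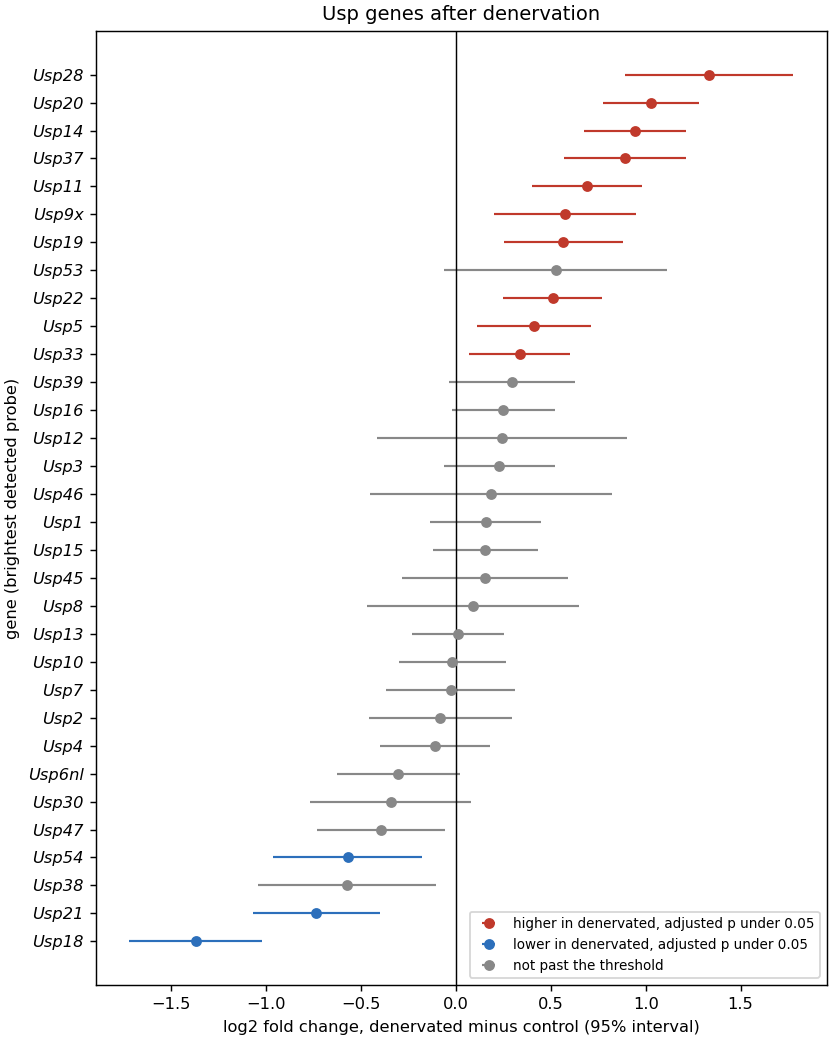
Log2 fold change (x axis, denervated minus control) of the 32 measured Usp genes (y axis), each by its brightest detected probe, with the 95% interval of the model from 3 arrays per group. Red points were called higher and blue points lower at an adjusted p under 0.05 (limma). Usp28 stands highest at 1.33 and Usp18 lowest at -1.37, and 19 genes in gray lie between -0.57 and 0.52.

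A few facts bear on all values. The arrays detected 11551 to 12785 probes each with a median of 39 or 40 beads per probe, and replicates of a group correlated at 0.9878 to 0.9939. Before normalization the denervated arrays were brighter as a whole. Their median signal was 159 to 177, against 144 to 155 on the control arrays, and their 95th percentile was 4000 to 4048, against 2896 to 3022. The 6 arrays shared 1 chip, on which each group occupied neighboring positions, and position and group cannot be told apart. All 14 fiber genes used to check the tissue were detected, and all 10 genes used to check the nerve lesion rose, with a median of 3.37. In whole muscle, fewer cells of a type and less RNA per cell cannot be told apart, and other cell types moved with the lesion. Macrophage and leukocyte markers rose in 9 of 9 detected genes of 11 on the array (median 1.31), with Ptprc and Itgam at background. Their summed linear intensity was 9417 to 11496 in denervated muscle, against 3787 to 4058 in control muscle. Endothelial markers fell in 5 of 8 detected genes (summed 7711 to 7862 in denervated muscle, against 9533 to 11943 in control muscle), and Schwann cell and myelin markers fell in 4 of 5, with Ngfr higher. The part of these cells in the changes of the Usp genes was not tested.

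The largest rise of the family was that of Usp28. The protease is known for protecting Myc from breakdown and for its place in the DNA damage response, and it is the closest relative of Usp25. Usp28 had log2 intensities of 11.36, 11.41 and 11.10 in denervated muscle, against 9.52, 10.08 and 10.28 in control muscle. The 3 denervated values lay close together and all above the control values, of which replicate 1 was the lowest. The log2 fold change was 1.33 ± 0.20 (SE, n = 3 per group; 2.52-fold; adjusted p = 0.000779). Before normalization the signal was 2652 to 3252 in denervated muscle and 714 to 1158 in control muscle, with bead standard errors of 57.1 to 240. These signals include the greater brightness of the denervated arrays as a whole. With 1 array left out the fold change ran from 1.12 to 1.49.

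Usp20 followed. It is known in humans as a deubiquitinase bound by the von Hippel-Lindau protein and as one that recycles the beta2-adrenergic receptor. Its values were 10.36, 10.29 and 10.27 in denervated muscle and 9.18, 9.36 and 9.30 in control muscle. The replicates of each group nearly coincided, and the groups were a full log2 unit apart, at 1.03 ± 0.11 (2.04-fold; adjusted p = 0.000142). Its close relative Usp33, which shares the von Hippel-Lindau partner and the receptor, had 10.87, 10.92 and 11.04 in denervated muscle, against 10.70, 10.49 and 10.64 in control muscle. The groups of Usp33 did not overlap but lay close, and the call at 0.33 ± 0.12 (adjusted p = 0.0459) was lost without any 1 of the 6 arrays, at adjusted p of 0.0537 to 0.127.

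Usp28 and Usp20 were 2 of the 3 members called with a fold change of at least 1 log2 unit, where 11.9% of all genes passed both limits. The other was Usp18. The promoters of Usp28 and Usp20, 250 bases before to 50 bases after the start of the gene, are shown because these 2 genes rose most (RefSeq, GRCm38.p6, both on the plus strand). Capitals mark the GC box GGGCGG or its complement CCGCCC, the known binding sequence of Sp1-type factors.
Usp28, chr9:48985135-48985434: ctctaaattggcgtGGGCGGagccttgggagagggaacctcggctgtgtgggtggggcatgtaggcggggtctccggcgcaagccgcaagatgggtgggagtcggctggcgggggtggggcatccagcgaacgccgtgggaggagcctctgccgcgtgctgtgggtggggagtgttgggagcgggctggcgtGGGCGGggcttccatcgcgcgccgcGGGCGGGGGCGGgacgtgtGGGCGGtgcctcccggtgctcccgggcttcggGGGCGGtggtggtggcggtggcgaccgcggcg
Usp20, chr2:30982029-30982328: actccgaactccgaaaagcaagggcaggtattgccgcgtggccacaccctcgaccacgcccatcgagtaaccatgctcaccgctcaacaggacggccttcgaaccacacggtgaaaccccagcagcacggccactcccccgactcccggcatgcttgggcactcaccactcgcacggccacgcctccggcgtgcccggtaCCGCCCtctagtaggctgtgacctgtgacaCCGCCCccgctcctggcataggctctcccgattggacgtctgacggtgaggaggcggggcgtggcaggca

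The Usp28 window held 6 matches, 2 of them side by side, and the Usp20 window held 2. A match was found in 35.7% of all 32851 promoter windows and in 21 of the 36 members with a window. Usp7 and Usp12, which were not called, had 8 and 6. The general E-box CANNTG, the type of sequence bound by myogenic factors, was searched on both strands, being its own complement. It had 0 matches in both windows, where 72.3% of all windows and 22 of the 36 members held one. Usp2, Usp7, Usp8, Usp38 and Usp47, which were not called, and Usp21, which fell, had 0 as well. Among the other risers with a window, Usp11 had 5 E-boxes, and Usp19 and Usp37 had 1 each. These matches describe letters in a short window and not binding.

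At the proteasome, Usp14 rose. It docks on the regulatory particle, where it trims ubiquitin chains before the protein is degraded. Its values were 9.64, 9.49 and 9.77 in denervated muscle, against 8.69, 8.63 and 8.75 in control muscle. The spread within each group was small beside the difference of 0.94 ± 0.12 (1.92-fold; adjusted p = 0.000331). Usp5, which takes apart ubiquitin chains that are no longer attached to a protein, had 8.59, 8.52 and 8.66 in denervated muscle and 7.95, 8.29 and 8.29 in control muscle. The groups were apart by 0.41 ± 0.13 (adjusted p = 0.0328), a call that was lost without control replicate 1 (0.30; adjusted p = 0.0971) and without denervated replicate 1, 2 or 3 (0.0652 to 0.0862). Usp13, the nearest relative of Usp5, had 11.67, 11.73 and 11.81 in denervated muscle, against 11.72, 11.70 and 11.75 in control muscle. The groups overlapped fully, and the 95% interval of the log2 fold change was -0.23 to 0.26 around 0.01.  The difference between Usp5 and Usp13 was not tested.

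Of the genes studied in wasting muscle, Usp19 rose as well. It is a protease with a form anchored in the endoplasmic reticulum, and its mRNA is known to rise in rat muscle in several kinds of atrophy. Its values were 9.34, 9.55 and 9.54 in denervated muscle, against 8.79, 9.14 and 8.81 in control muscle. All denervated values were above all control values, at 0.57 ± 0.14 (1.48-fold; adjusted p = 0.0101), and the call held in all 19 alternatives with adjusted p of up to 0.0434. Usp2, known for its daily rhythm, was measured by 3 probes that did not pass the threshold. Its brightest probe had 12.19, 12.47 and 12.61 in denervated muscle and 12.60, 12.22 and 12.70 in control muscle. The groups overlapped, with a log2 fold change of -0.08 (95% interval -0.46 to 0.30), and the other probes stood at 0.03 and 0.40.

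Genes of proteases that act on histones and in the nucleus moved in both directions. Usp22, the deubiquitinase of the SAGA complex, rose by 0.51 ± 0.11 (adjusted p = 0.00711). Its 3 denervated values of 9.51, 9.52 and 9.53 were nearly equal and lay above the control values of 8.99, 9.15 and 8.90. Usp21, which removes ubiquitin from histone H2A, had 7.10, 7.02 and 6.62 in denervated muscle, against 7.59, 7.75 and 7.61 in control muscle. After normalization it was lower on every denervated array and fell by 0.74 ± 0.15 (1.67-fold, adjusted p = 0.0041), or by 0.42 without background correction. Before normalization its signal was 242 to 277 in denervated muscle and 271 to 281 in control muscle, so that the groups overlapped. The other H2A proteases Usp16 (0.25, adjusted p = 0.124) and Usp3 (0.23, adjusted p = 0.187) did not pass the threshold by their brightest probes, and Usp7, which acts on Mdm2 and p53, stood at -0.03 (-0.37 to 0.31).

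A pair of dim nuclear members was detected in denervated muscle only, which is also what brought them past the filter on dim probes. Usp37, which opposes the anaphase-promoting complex in the cell cycle, had 6.07, 5.86 and 6.19 in denervated muscle and 4.96, 5.16 and 5.32 in control muscle. Usp11, which works in DNA repair, had 5.91, 5.94 and 5.94 in denervated muscle and 5.26, 5.41 and 5.04 in control muscle. Neither was above background on any control array, so that the fold is a bound against the lowest detected signal. By this bound, which was not itself tested, Usp37 was at least 1.18-fold and Usp11 at least 1.09-fold higher. The fitted log2 differences of 0.89 (adjusted p = 0.00117) and 0.69 (adjusted p = 0.00255) depend on values at background. They were 0.40 and 0.30 without background correction.

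**Figure D2:**
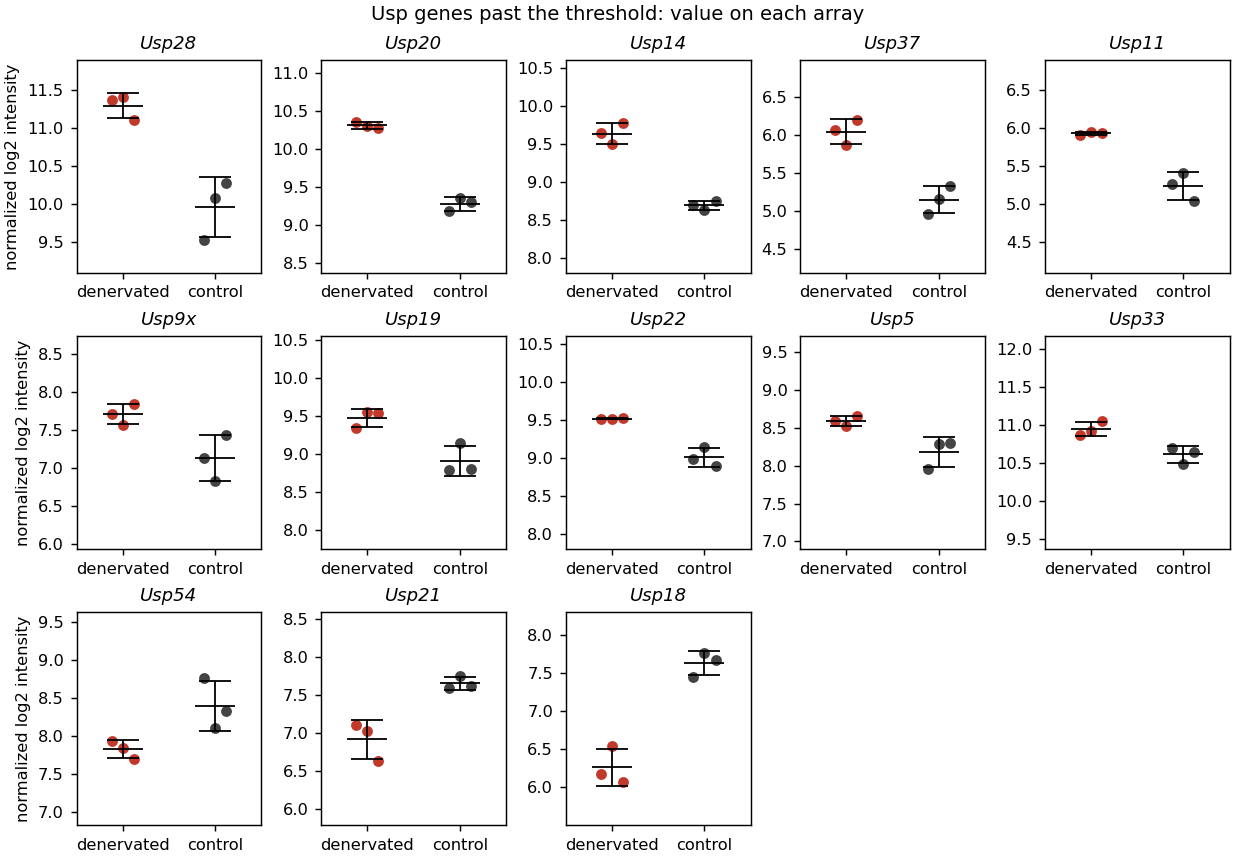
Normalized log2 intensity (y axis, the same span in every panel) on each of the 3 denervated arrays (red, left) and 3 control arrays (dark gray, right) for the 13 Usp genes past the threshold. Long bars are means and whiskers are SD. The genes were chosen by a test on these same values, which favors groups that do not overlap. In all 13 genes the groups do not overlap, which was so for 55% of all genes tested. Usp28, Usp20 and Usp18 show the widest gaps.

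The largest fall of the family was that of Usp18. It is the protease that removes the ubiquitin-like protein Isg15, it dampens signaling from the type I interferon receptor, and it is itself induced by interferon. Its brightest probe had 6.17, 6.54 and 6.07 in denervated muscle, against 7.45, 7.76 and 7.68 in control muscle. The groups were far apart, at -1.37 ± 0.15 (2.59-fold lower; adjusted p = 0.000177). Another detected probe had 5.75, 5.90 and 5.68 in denervated muscle and 6.78, 7.06 and 7.20 in control muscle, and gave -1.24 ± 0.14 (adjusted p = 0.000184). The remaining probe was above background on 1 control array only. Without 1 array the fold change of the brightest probe ran from -1.51 to -1.28, and without background correction it was -0.72 (adjusted p = 5.63e-05).

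Other interferon-stimulated genes were examined beside Usp18. Of 19 on the array 11 were detected, of which 1 was called higher and 0 lower (limma; 2 and 2 at an unadjusted p under 0.05; 1 and 0 by an unmoderated test of each probe with adjustment), with a median of -0.06. Isg15 itself was above background on 2 arrays of each group and stood at -0.33 ± 0.30 (adjusted p = 0.415). Rsad2 (-1.02, adjusted p = 0.0582) and Ifit3 (-0.48, adjusted p = 0.0535) did not pass the threshold. The one called was the chemokine Cxcl10, which no control array detected and which was at least 1.70-fold higher after denervation. Whether Usp18 differed from these genes was not tested. On the same arrays the macrophage markers given above were higher, and their part in the level of Usp18 was not tested.

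Usp54, long classed with Usp53 among the members without deubiquitinating activity, had 7.93, 7.84 and 7.70 in denervated muscle and 8.75, 8.10 and 8.33 in control muscle. Its signals before normalization overlapped, at 369 to 405 in denervated muscle and 330 to 461 in control muscle. After normalization it was lower on all denervated arrays, at a log2 fold change of -0.57 ± 0.17 (adjusted p = 0.0264), but control replicate 1 stood apart. The call was lost without that array (-0.39; adjusted p = 0.0612), without denervated replicate 2 (0.0696) or 3 (0.0775), and with the arrays shifted to 1 median (-0.32; adjusted p = 0.145). Usp53 had 6.38, 6.52 and 6.53 in denervated muscle, against 5.47, 5.76 and 6.62 in control muscle. It was above background on 1 control array only, replicate 3, which was also its highest value on any array. The log2 fold change was 0.52 ± 0.26 (adjusted p = 0.134), and with the arrays shifted to 1 median it was 0.63 (adjusted p = 0.0466). Without control replicate 3 the call was higher (adjusted p = 0.00304), but no control array left detected the probe, so that the size of that difference rests on values at background.

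Usp30, which sits on the outer mitochondrial membrane and opposes mitophagy, had 6.17, 6.68 and 6.72 in denervated muscle and 6.58, 6.98 and 7.05 in control muscle. The groups overlapped, with a log2 fold change of -0.34 (95% interval -0.77 to 0.08; adjusted p = 0.17). Usp47, a protease of base excision repair, had 11.88, 11.90 and 11.78 in denervated muscle, against 11.99, 12.23 and 12.52 in control muscle. Its signal before normalization was 4220 to 4510 in denervated muscle and 3530 to 5202 in control muscle, so that the groups overlapped. After normalization they did not, but the difference of -0.39 ± 0.15 was just outside the threshold (adjusted p = 0.059). Usp47 was called lower in 7 of 19 alternatives. Among these were the absence of background correction (adjusted p = 0.0194), the authors' normalized values (0.0185) and leaving out control replicate 1 (-0.52; 0.0204). With the arrays shifted to 1 median it stood at -0.18 (adjusted p = 0.403). Usp1, which acts on Fancd2 in DNA repair together with Wdr48, stood at 0.16 (-0.13 to 0.45), with 0.10 and -0.10 by its other probes.

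Among the proteases of Tgf-beta and kinase signaling, Usp9x, a large X-linked enzyme known to act on Smad4 and Mcl1, had 7.71, 7.57 and 7.84 in denervated muscle and 7.13, 6.84 and 7.43 in control muscle. The brightest probe was 0.57 ± 0.16 higher (adjusted p = 0.0213). Its other detected probe stood at -0.09, the mean of both was not called (0.24; adjusted p = 0.329), and the brightest probe was 0.34 higher without background correction. The call was lost without denervated replicate 1 (0.0576) or 3 (0.0661) or control replicate 2 (0.0633). Usp15, which acts on the Tgf-beta receptor complex, and its relative Usp4 stood at 0.15 (-0.12 to 0.43) and -0.11 (-0.40 to 0.18). The remaining members not called were Usp8 of the endosome (0.09), Usp10 (-0.02), Usp6nl (-0.30), the Wdr48-bound pair Usp12 (0.24) and Usp46 (0.18), and Usp45 (0.15). Usp12 and Usp46 varied widely between arrays, with an SE of 0.29 and 0.28.

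Members with several detected probes allowed a limited check. Of the 11 members with more than 1 detected probe, 7 had probes that were called alike and 4 were called by some of their probes only. In 0 were probes called in opposite directions. Of the 7, only Usp18 was called, lower by both probes, and Usp1, Usp10, Usp2, Usp4, Usp6nl and Usp8 were called by none. Among the members that rose, only Usp9x had a second detected probe, which stood at -0.09. The rises of Usp28, Usp20, Usp14, Usp37, Usp11, Usp19, Usp22, Usp33 and Usp5 each rest on 1 detected probe. The same holds for the falls of Usp21 and Usp54. Usp39, a splicing factor without protease activity, was not called by its brightest probe (0.30 ± 0.15; adjusted p = 0.134), whereas 2 of its 3 other probes rose, by 0.45 (adjusted p = 0.011) and 0.40 (adjusted p = 0.03), and the last stood at 0.25. All 4 of its probes were thus above 0. The second probe of Usp3 rose by 0.57 (adjusted p = 0.0239). Usp38 was just outside the threshold by its brightest probe (-0.57; adjusted p = 0.0507), with denervated replicate 3 at 6.94 above control replicate 2 at 6.88, and its second probe fell by 0.73 (adjusted p = 0.0186). The brightest probe of Usp38 was called lower in 8 of 19 alternatives, such as an offset of 50 (adjusted p = 0.0386), the mean of its detected probes (0.0074), and without denervated replicate 3 (0.0309) or control replicate 2 (0.0248). Over all 47 detected probes, 13 were called higher and 5 lower, and 42.9% of all probes were called.

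**Figure D3:**
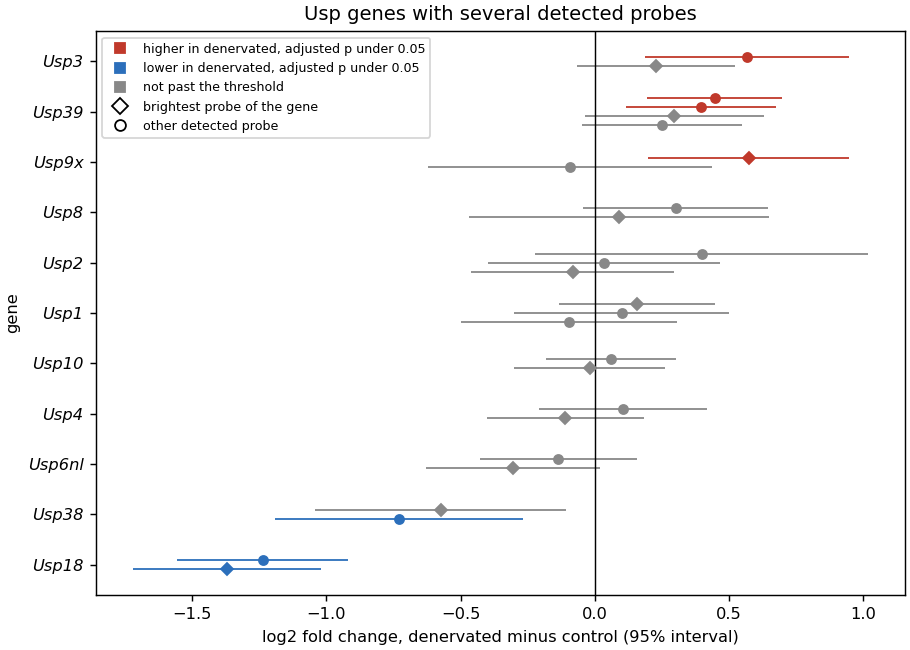
Log2 fold change with 95% interval (x axis, denervated minus control) of each detected probe of the 11 Usp genes with several (y axis), from 3 arrays per group. Diamonds are the brightest probe of a gene and circles its other probes, red for called higher, blue for called lower and gray for not called. Both Usp18 probes lie below -1, all Usp39 probes lie above 0, and the Usp9x probes are split at 0.57 and -0.09.

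A list of genes from other deubiquitinase families, whose activity on ubiquitin was not checked here, gave similar counts. Of 36 genes on the array 32 were detected, of which 11 rose and 4 fell, with a median of 0.29. Among all genes tested 22.2% rose and 21.6% fell, so that 43.8% were called. Psmd14, the deubiquitinase of the proteasome lid, rose by 1.10 ± 0.17 (adjusted p = 0.00101) and Uchl1, an enzyme best known from neurons, by 0.997 ± 0.199 (adjusted p = 0.00393). Mpnd, a metalloprotease, had -1.14 ± 0.11 (adjusted p = 6.49e-05) and Otub2, an OTU protease, -1.04 ± 0.20 (adjusted p = 0.00325), with -1.35 and -1.34 by the other probes of Otub2. Of 7 detected partners of Usp proteins, 4 rose and 1 fell, beside the same shares over all genes. The proteasome subunits Psmd2 (0.82 ± 0.16, and 1.35 by its other probe), on which Usp14 docks, and Psmd1 (0.66 ± 0.15) rose, together with Mdm2, a target of Usp7 (0.69 ± 0.11, with 0.93 and -0.31 by its other probes). G3bp1, the partner of Usp10, fell by 0.54 (0.37 by its other probe, not called). Of 8 listed ubiquitin genes and E1 enzymes 3 were matched to a probe by symbol, and the others were not analysed here. Uba6 was not detected on enough arrays, Isg15 is given above, and Uba7, the E1 enzyme of Isg15, stood at 0.01.

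**Figure D4:**
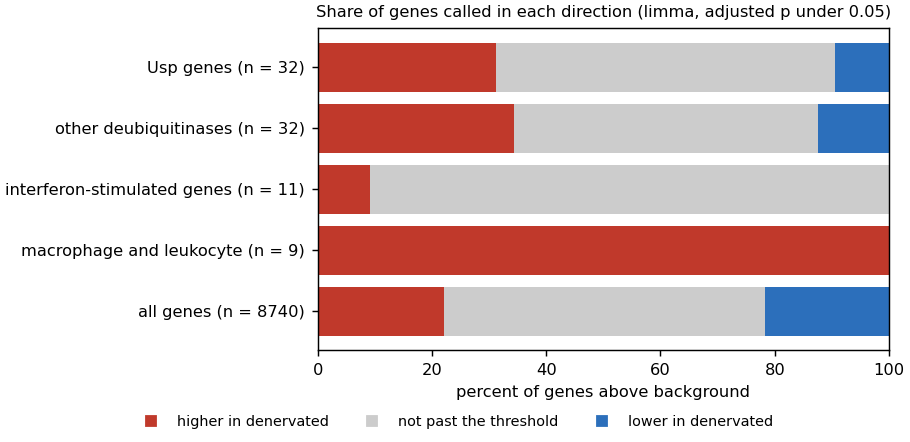
Percent of detected genes (x axis) called higher (red, left), not past the threshold (gray) and lower (blue, right) in denervated against control muscle for the gene lists on the y axis (limma, 3 arrays per group). The Usp genes had 10 higher and 3 lower of 32, and the other deubiquitinases 11 and 4 of 32. Of all 8740 genes 22.2% were higher and 21.6% lower, and 9 of 9 macrophage and leukocyte markers were higher.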

How the data were processed

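Total RNA was depleted of ribosomal RNA, amplified into biotinylated cRNA and hybridized to Illumina mouse arrays, which the authors read in GenomeStudio. The deposited table held a linear signal intensity per probe and array with its bead standard error, number of beads and detection p-value, the latter ranked by the authors' software against negative control beads. These values were neither background-subtracted nor normalized. The authors' quantile-normalized intensity values were used as an alternative (0 columns were left out).

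The background was modeled as normal and the signal as exponential, with the background estimated from detection p-values. After an offset of 16 came quantile normalization and log2 (the steps of neqc; limma 3.58.1 under R 4.3.3). Probes with a detection p-value under 0.05 on at least 3 arrays were kept, and denervated was compared with control by lmFit and eBayes in limma. Symbols came from the platform annotation (1 gene for 23978 probes, none for 1719), and RefSeq (GRCm38.p6) changed 0 of them. Where no array of a group detected a probe, its fold is a bound. The offset understates changes of dim probes. Nothing says that the samples of a group came from separate mice, and p-values then measure only their spread, which may be technical. Alternatives were other background corrections, scalings, filters, tests and probe summaries, the replicate number as a block, and leaving out each array. The fitting steps were tested on simulated data. All members were named, with full values for calls of at least 1 log2 unit and for Usp14, Usp19, Usp2, Usp13, Usp25, Usp18, Usp30 and Usp5. The values of other members by array were added after they had been seen. Members and lists were chosen with earlier results of these data known.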

Additional observations from a re-analysis of the deposited data

How the results depend on the processing

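Of the 13 called members, Usp28, Usp20, Usp14, Usp37, Usp11, Usp19, Usp22, Usp21 and Usp18 kept their call in every alternative that gave them a value, and Usp33, Usp9x, Usp5 and Usp54 lost it in some. With the arrays shifted to 1 median, 16 Usp genes were higher, 3042 of all genes were higher and 1116 lower (1937 and 1892 otherwise), and 19 other deubiquitinases were higher. Several settings gave 5 lower Usp genes in place of 3. They also moved the share of all genes called in either direction, which was 43.8% in the main test. It was 45.8% with an offset of 50 and with the median shift set by probes that every array detected. With detection required on all 6 arrays it was 47.6%, with moderation by trend and robust estimation 46.5%, and under the replicate block 43.4%. With 1 array left out, 7 to 10 Usp genes were higher and 2 to 4 lower, 1518 to 1754 of all genes were higher and 1475 to 1696 lower, 8 to 12 other deubiquitinases were higher and 3 to 4 lower, and the median of the Usp genes ran from 0.07 to 0.29. The cause of these shifts was not tested. The labels call the controls contralateral legs and share replicate numbers between the groups, without saying whether a number marks a mouse. The deviations of same-numbered samples correlated at -0.02, 0.16 and 0.16, which cannot decide whether they are pairs. The main test took them as unpaired, so any pairing by mouse is left out of it. The replicate block gave 9 higher and 5 lower Usp genes, with Usp30 (adjusted p = 0.0477) and Usp38 (0.0103) called lower and Usp33 (0.0629) no longer called, and it changed no other call of a Usp gene. The t-test of each probe gave 8 higher and 2 lower Usp genes with adjustment, where 34.4% of all genes were called. Without adjustment it gave 11 and 3, where 47.2% of all genes were called. With 3 arrays a group, differences of members near background, such as Usp12, Usp45 and Usp46, were measured with wide intervals.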
